A study of Homo sapiens with 18 samples.

Results

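The 10 genes of the Notch pathway described here were measured across the 6 conditions of an RNA sequencing study of endothelial cells. They are the receptors NOTCH1, NOTCH2, NOTCH3 and NOTCH4, the ligands JAG1, JAG2 and DLL4, the target genes HES1 and HEY1, and LFNG, a glycosyltransferase that modifies the receptors. They were matched to the matrix by symbol, with no threshold on their values, and all 10 are among the 62754 genes listed in the deposited gene matrix. Of the 10, 9 had counts high enough to be tested, and NOTCH3 did not.

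The cells were EA.hy926, a line made by fusing human umbilical vein endothelial cells with the A549 lung epithelial line. In the Mock condition they received transfection reagent without siRNA, in siNT 10 nM of non-targeting siRNA, and in siELMO1 10 nM of a pool of siRNAs against ELMO1, a protein that helps activate the small GTPase RAC1. All of them were starved in low serum, and 48 h after transfection they were either lysed (0 h) or given 1 μg/ml of poly(I:C), a double-stranded RNA mimic that activates TLR3, and lysed 24 h later. According to the study, transfected siRNA also stimulates TLR3, so siNT and siELMO1 cells were stimulated before poly(I:C) and Mock cells were not. The part of this in differences from Mock was not tested. Each of the 6 conditions had 3 libraries, which the study calls biological replicates. No library of cells kept for the same 24 h without poly(I:C) was analysed here, so poly(I:C) and the added day cannot be told apart in any 24 h against 0 h comparison.

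Notch receptors sit at the cell surface and are bound by ligands of the Jagged and Delta-like families on a neighbouring cell. Binding lets an ADAM protease and then γ-secretase cut the receptor, and the freed intracellular part enters the nucleus, joins the DNA-binding protein RBPJ and Mastermind coactivators, and turns on HES and HEY repressor genes. In blood vessels the pathway is known for arterial identity and for sorting sprouting tip cells from stalk cells, with DLL4 and JAG1 as ligands of differing effect when LFNG has modified the receptor.

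The DNA element through which RBPJ acts can be shown for HES1, a target gene that fell with poly(I:C) in each treatment. The window searched for each gene ran from 250 bases before to 50 bases after the RefSeq transcription start (GRCh38.p14). RefSeq entries were found for 9 of the 10 genes and not for HEY1. The letters GTGGGAA, the core of an RBPJ site, were searched on both strands, and of the 9 genes with an entry HES1 was the 1 with a match, beside 6.23% of 34796 promoters. HES4, a related repressor gene described further on, also held the core. Both are shown 5′ to 3′ on the strand of the gene with the core in capitals. The HES1 window lies at chr3:194136052-194136080 on the plus strand with its core 85 to 79 bases before the start, and the HES4 window at chr1:1000157-1000185 on the minus strand with its core 77 to 71 bases before the start.
HES1 core: tgaaagttactGTGGGAAagaaagtttgg
HES4 core: ctggggcgagtGTGGGAAagaatgcggag

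HES1 is also known for repressing its own gene through N-boxes, and its window held 4 matches to the letters CACNAG on either strand. At least 1 match is common (38.0% of promoters, and 7 of the 9 genes with an entry), whereas 4 or more occurred in 0.285%. The 3 matches before the HES1 start are shown with the N-box in capitals, at chr3:194135971-194136000, chr3:194136004-194136033 and chr3:194136078-194136107. The first is a match on the other strand, and none of them overlaps the RBPJ core.
HES1 N-box at -165: tggccgccagacCTTGTGcctggcggccaa
HES1 N-box at -132: gggggcgcggtcCACGAGcggtgccgcgtg
HES1 N-box at -58: tgggaagtttcaCACGAGccgttcgcgtgc
The consensus of an interferon-response element (3.57% of promoters) had no match in the 9 windows, and the NF-kB consensus (11.3% of promoters) had matches in NOTCH2, JAG2, DLL4 and HES1. A match describes letters in a window and not bound protein.

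Each library held between 40.4 and 73.9 M estimated counts. ELMO1 itself, the targeted gene, was at 2.66 to 3.32 CPM (counts per 1 M after TMM scaling) in the 6 Mock and siNT libraries at 0 h and at 0.299 to 0.419 CPM in the 3 siELMO1 libraries, a log2 fold change of -3.11 ± 0.28 (SE) against siNT (edgeR adjusted p = 2.7e-08), or -3.01 without the first siELMO1 library. Of 10 endothelial markers 9 were tested, with CDH5 at 339 to 978 CPM, and CLDN5 was near 0. They were higher in siELMO1: 7 of 9 exceeded siNT at 0 h and 7 at 24 h, beside 31.3% and 26% of all genes, and 1 was lower each time. The summed level of all 10 was 2852 to 3095 CPM in siELMO1, 2167 to 2253 CPM in siNT and 2184 to 2289 CPM in Mock at 0 h, and 2577 to 3100, 2108 to 2298 and 1546 to 1922 CPM at 24 h. The part of this in the siELMO1 differences of the Notch genes was not tested. The study also reported a smaller share of cells in S phase in siELMO1 than in Mock and siNT before poly(I:C). The part of that in the same differences was likewise not tested. After poly(I:C), the study reported massive cell death in siNT cells and much less of it in Mock and siELMO1 cells. It proposes this death as the likely reason for lower inflammatory gene expression in siNT. The part of cell death in siNT levels after poly(I:C), in siNT responses and in comparisons with them was not tested. Of 8 epithelial markers the keratins KRT7, KRT8 and KRT18, known from the epithelial parent, were also high, while the epithelial cadherin CDH1 had no count. The other markers were low. Before TMM scaling their highest library was at 1.32 CPM for EPCAM, 1.49 for CLDN4, 0.441 for KRT19 and 0.136 for ESRP1. The summed level of all 8 epithelial markers, 5 of them tested, was almost wholly that of the 3 keratins. It was lower at 24 h than at 0 h in all libraries of each treatment, going from 1517 to 1539 CPM to 842.7 to 861.6 CPM in Mock. The first siELMO1 library at 0 h stood apart, with a chi-square per degree of freedom of 70.9 and 79.1 against its replicates, which differed from each other by 10.2. Mitochondrial counts, on the other hand, were 4.02% and 3.95% in those replicates, 1.86% in the first library and 1.31% to 2.42% in all others. The totals of those replicates, 40.4 and 51 M, were also the lowest of all libraries, beside 71.1 M in the first. Values without the first library thus rest on the replicates with the high mitochondrial share and low depth. Called differences that use the first library are given with and without it. In these bulk libraries fewer cells of a type and less RNA per cell cannot be told apart.

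Per length of transcript (TPM), NOTCH2 was the most abundant of the 10 genes with a mean of 123.5 TPM over the 18 libraries, followed by JAG1 with 68.1 TPM and NOTCH1 with 41.1 TPM. HES1 averaged 16.6 TPM, LFNG 8.97 TPM and HEY1 3.71 TPM. The median over all genes with a mean of at least 1 TPM was 18.2 TPM. DLL4 (1.27 TPM), JAG2 (0.843 TPM), NOTCH4 (0.725 TPM) and NOTCH3 (0.0784 TPM) were at the low end. Neighbours in this order were not always apart: NOTCH2 exceeded JAG1 in 16 of 18 libraries, the exceptions lying among the siNT libraries at 0 h, where JAG1 reached 102.5 TPM. DLL4 exceeded JAG2 in 14 libraries, and JAG2 exceeded NOTCH4 in 9 of 18, so those low genes have no order beyond their spread. HES1 exceeded LFNG in 17 libraries, and LFNG exceeded HEY1 in 17.

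**Figure D1:**
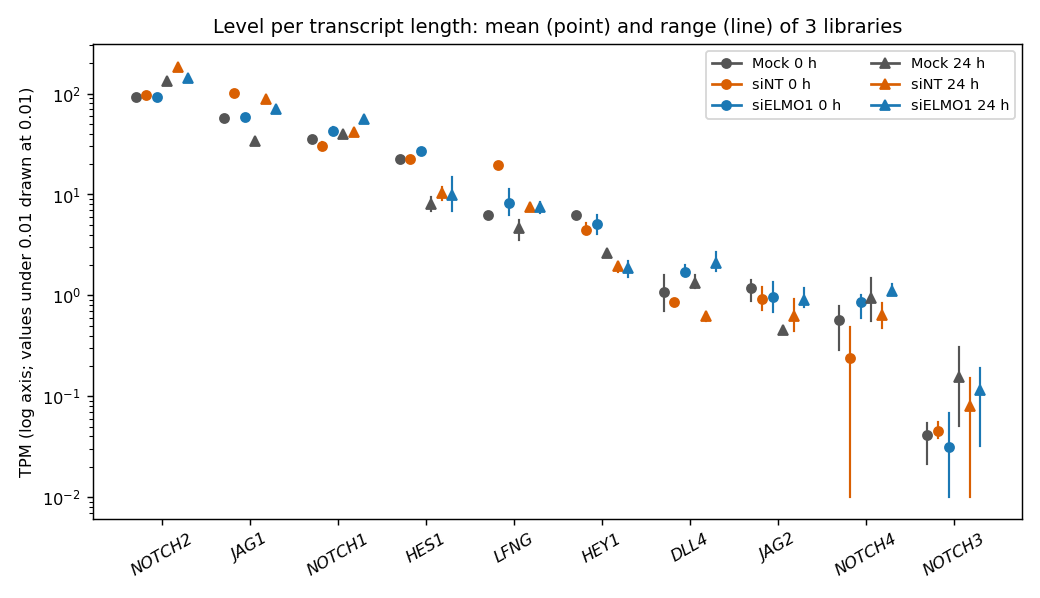
Level of each gene per transcript length (TPM, log axis) in the 6 conditions, with the mean of 3 libraries as a point and their range as a line; circles are 0 h, triangles 24 h after poly(I:C), grey is Mock, orange siNT and blue siELMO1, and values under 0.01 are drawn at 0.01. NOTCH2, JAG1 and NOTCH1 stand highest in all conditions and NOTCH3 lowest on average.

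After poly(I:C) HES1 and HEY1 fell and NOTCH1 and NOTCH2 rose in Mock, siNT and siELMO1 alike. This does not extend to all target genes or receptors: HES4 and HES7, described further on, rose, and NOTCH4 was not called. Between treatments JAG1 was highest in siNT at both times and LFNG at 0 h, NOTCH1 was highest in siELMO1 at both times, and DLL4 was higher in siELMO1 than in siNT. A gene was called at a Benjamini-Hochberg adjusted p under 0.05 over all 15167 genes tested with edgeR. Calls were common in these data, so the share of all genes called stands beside each count. With poly(I:C), 6 of 9 genes were called in Mock, beside 60.3% of all genes, with 2 higher (30.7% of all genes) and 4 lower (29.6%). In siNT 7 were called beside 53.8%, with 2 higher (28.6%) and 5 lower (25.2%), and in siELMO1 5 beside 54.9%, with 3 higher (28%) and 2 lower (26.9%). At 0 h, siELMO1 against siNT gave 5 calls beside 62.6%, with 3 higher (31.3%) and 2 lower (31.3%). Against Mock, siELMO1 gave 3 beside 50.2%, all of them higher (27.9% higher and 22.4% lower among all genes), of which only NOTCH1 was called without the siELMO1 library that stood apart or without Mock replicate 1 or 2 at 0 h, and siNT gave 4 beside 51.6%, with 3 higher (27.6%) and 1 lower (24%). At 24 h, siELMO1 against siNT gave 4 calls beside 52.6%, with 2 higher (26%) and 2 lower (26.5%). Against Mock, siELMO1 gave 5 beside 43.6%, with 4 higher (21.6%) and 1 lower (22%), and siNT gave 4 beside 50.2%, with 3 higher (25.2%) and 1 lower (24.9%). The response to poly(I:C) differed for 3 genes between siELMO1 and siNT (beside 34.5% of all genes), for 2 between siELMO1 and Mock (beside 28.3%) and for 3 between siNT and Mock (beside 31%). Over 9 genes such counts carry no result about the genes as a group, and the values are given gene by gene. The median log2 fold change of the 9 genes ran from -0.37 (24 h against 0 h in siNT) to 0.53 (siELMO1 against Mock at 24 h) over these comparisons. That of all genes tested ran from -0.02 to 0.04. Comparisons that share a condition share its libraries, so they are not independent of each other.

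**Figure D2:**
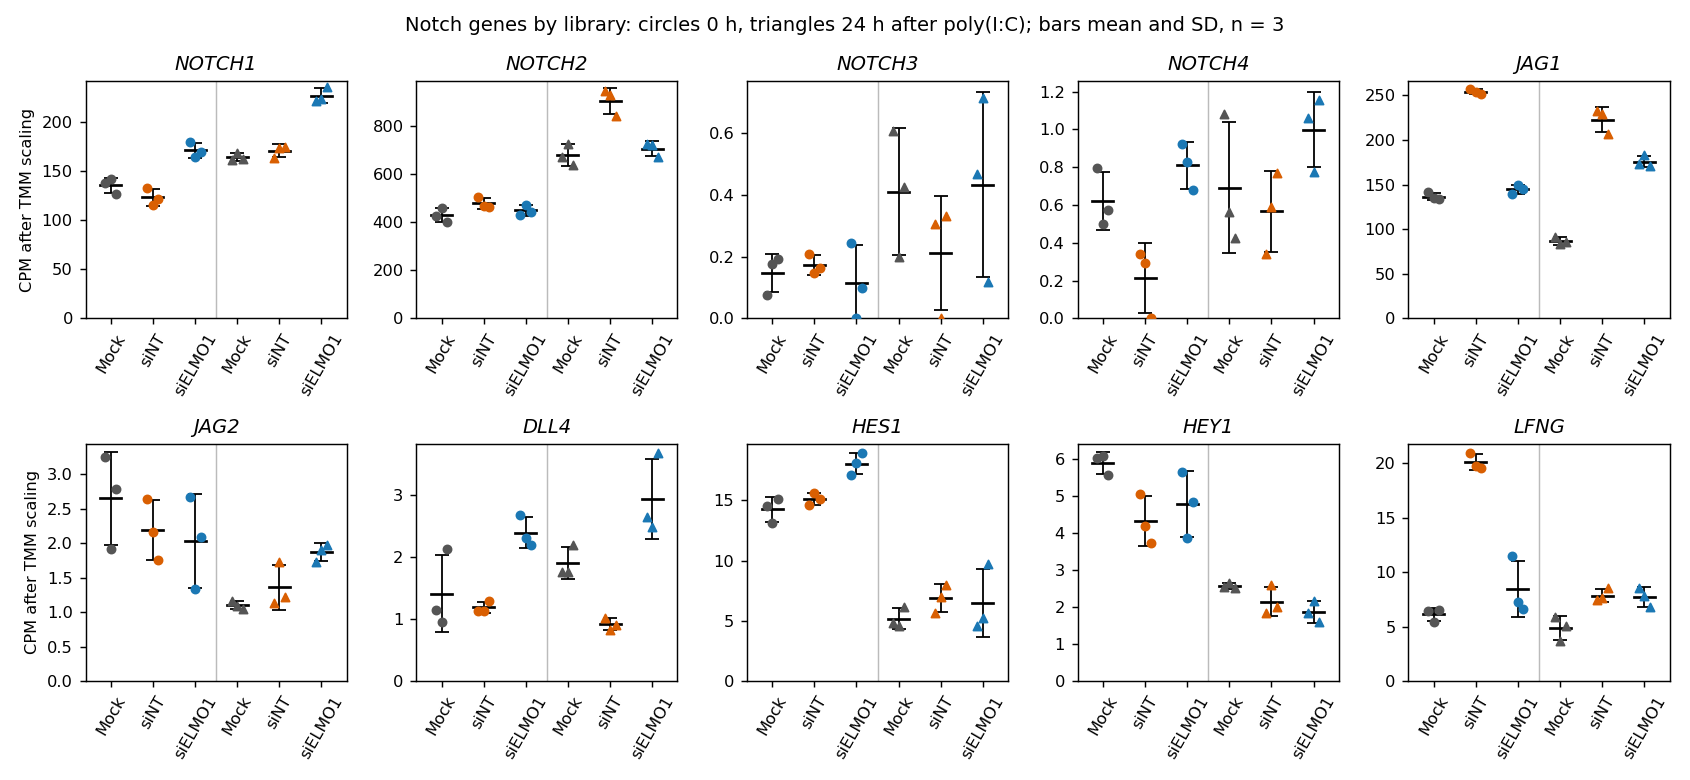
CPM after TMM scaling of the 10 genes in each library, with the mean and SD of 3 libraries as bars; circles are 0 h, triangles 24 h after poly(I:C), grey is Mock, orange siNT and blue siELMO1. HES1 and HEY1 are lower in all libraries at 24 h than at 0 h, JAG1 and LFNG are highest in siNT at 0 h, and each panel has its own axis from 0.

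Among the receptors, NOTCH1 was higher in siELMO1 than in both controls at both times. Its gene lies at chr9:136494433-136546048 on the minus strand (GENCODE v44), and 91.1% of its counts were on the coding transcript NOTCH1-204. At 0 h it was at 137, 142 and 126 CPM in Mock, 133, 116 and 122 in siNT, and 179, 164 and 169 CPM in siELMO1. After 24 h of poly(I:C) these were 161, 168 and 162 CPM in Mock, 163, 174 and 175 in siNT, and 221, 223 and 235 CPM in siELMO1. All siELMO1 libraries were above all control libraries of the same time, and within each treatment all 24 h libraries were above those of 0 h. The log2 fold change of siELMO1 was 0.47 ± 0.06 (SE) against siNT and 0.34 ± 0.06 against Mock at 0 h (edgeR adjusted p = 8.9e-07 and 6.5e-05), and 0.41 and 0.47 at 24 h, each with an SE of 0.06. Without the siELMO1 library that stood apart the values at 0 h were 0.44 and 0.30. With poly(I:C) NOTCH1 rose by 0.28 in Mock, 0.47 in siNT and 0.41 in siELMO1 on the log2 scale, the last being 0.44 without that library, and no difference between these 3 responses passed the test (adjusted p from 0.08 to 0.59).

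NOTCH2, the receptor with the highest level, rose with poly(I:C) in each treatment and stood highest in siNT at 24 h. It was at 425, 458 and 400 CPM in Mock, 505, 467 and 462 in siNT and 431, 473 and 443 CPM in siELMO1 at 0 h. At 24 h it reached 670, 726 and 638 CPM in Mock, 942, 927 and 842 in siNT, and 723, 721 and 670 CPM in siELMO1. The siNT libraries were thus above all others at 24 h, and Mock and siELMO1 overlapped. The part of cell death in this siNT level was not tested. NOTCH2 rose by 0.67 ± 0.06 in Mock, 0.92 ± 0.06 in siNT and 0.65 ± 0.06 in siELMO1 (log2, SE; edgeR adjusted p = 6.9e-08, 1.7e-09 and 1.2e-07), the last being 0.62 without the siELMO1 library that stood apart. At 24 h siNT exceeded Mock by 0.41 and siELMO1 was lower than siNT by a log2 value of -0.36 (adjusted p = 3.5e-05 and 0.00014). At 0 h siNT exceeded Mock by 0.16 (adjusted p = 0.042), a call that was lost without any 1 of Mock replicates 1 and 3 or siNT replicates 1 and 2 at 0 h, or Mock replicate 1 at 24 h (0.08 to 0.18).

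Reads of NOTCH2 can be shared with its near-identical human copies NOTCH2NLA, NOTCH2NLB and NOTCH2NLC, and how the authors' counting divided them is not given in the sources used here. The copies were far lower in counts: NOTCH2NLA was at 21.2 to 21.6 CPM in Mock at 0 h. All 3 rose with poly(I:C) in siNT (median log2 0.94) and in siELMO1 (0.56, or 0.54 without the library that stood apart), as NOTCH2 did, and none of the 3 was called in Mock, where NOTCH2 rose. Their rise in siELMO1 was smaller than in siNT, as that of NOTCH2 was. At 0 h all 3 were lower in siELMO1 than in siNT (log2 -0.49, -0.70 and -0.43, or -0.48, -0.70 and -0.35 without that library), where NOTCH2 gave -0.09 ± 0.06. At 24 h all 3 were higher in siNT than in Mock and lower in siELMO1 than in siNT, as NOTCH2 was, with NOTCH2NLB at -1.01 in the latter. An RNA on the other strand also overlaps NOTCH2 (chr1:119911553-120100779, minus strand), and its part in the counts was not tested.

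NOTCH4, a receptor found mainly in endothelium, was close to the limit of these libraries, with 0.34, 0.30 and 0 CPM in siNT at 0 h and 0.92, 0.83 and 0.68 CPM in siELMO1. Those libraries did not overlap, and the log2 fold change was 1.93 ± 0.65 (SE; edgeR adjusted p = 0.015), but the adjusted p was 0.074 when the fit held only the 2 conditions. Without the third siNT library, the one at 0, the value was 1.34 (adjusted p = 0.018), without the first siNT library 2.47 (adjusted p = 0.011), and without the siELMO1 library that stood apart 1.815 (adjusted p = 0.038). The 0 in the third siNT library allows up to 0.0457 CPM, from a limit of 3 counts. Elsewhere NOTCH4 ranged from 0.34 to 1.16 CPM, with no other call. Most of its counts (70.5%) lay on NOTCH4-205, a transcript with a retained intron at chr6:32194843-32196977, and 26.3% on the coding NOTCH4-201. At 0 h the NOTCH4-201 share ran from 0 to 100% among Mock libraries and from 0 to 75% among siELMO1 libraries. It was 0 in the siNT libraries with any count. With so few counts the shares do not separate the conditions. The 3′ end of NOTCH4 (chr6:32194843-32224067, minus strand) overlaps GPSM3 on the same strand (chr6:32190766-32195523), so some of these counts cannot be told apart from that gene. NOTCH3 had 277 counts in all 18 libraries and at most 0.714 CPM, and its conditions could not be compared at this depth.

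The ligands moved apart from each other. JAG1 (chr20:10637684-10673999, minus strand) was at 141, 135 and 134 CPM in Mock, 257, 254 and 252 in siNT and 140, 150 and 145 CPM in siELMO1 at 0 h. At 24 h it was at 91.4, 83.6 and 85.7 CPM in Mock, 232, 230 and 207 in siNT, and 173, 183 and 171 CPM in siELMO1. At 0 h siNT stood above both other conditions, which overlapped, and at 24 h the 3 conditions stood apart in the order siNT, siELMO1, Mock. The siNT level exceeded Mock 1.86-fold at 0 h and 2.57-fold at 24 h (log2 0.90 ± 0.05 and 1.36 ± 0.05, SE; edgeR adjusted p = 1.6e-10 and 6.2e-12). Against siNT, siELMO1 was lower with log2 values of -0.81 at 0 h (-0.79 without the siELMO1 library that stood apart) and -0.34 at 24 h, and against Mock it gave 0.09 (adjusted p = 0.17) and 1.01 (adjusted p = 1.5e-10).

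Among the 9 genes JAG1 was the one with called responses to poly(I:C) in both directions. It fell in Mock by a log2 value of 0.65 and in siNT by 0.19, and rose in siELMO1 by 0.28, each with an SE of 0.05 (edgeR adjusted p = 4.1e-09, 0.0038 and 0.00014). All libraries of 0 h and 24 h stood apart in each treatment. The response differed between all 3 pairs of treatments, by 0.93 for siELMO1 against Mock, 0.47 for siELMO1 against siNT and 0.46 for siNT against Mock, each with an SE of 0.07. Without the siELMO1 library that stood apart the rise was 0.26 and the first 2 differences were 0.91 and 0.45. Nearly all JAG1 counts (99.3%) were on 1 coding transcript. A long noncoding RNA overlaps the gene on the other strand.

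DLL4 (chr15:40929340-40939073, plus strand), the Delta-like ligand of sprouting tip cells, was a low gene that was higher in siELMO1. It was at 1.15, 0.959 and 2.12 CPM in Mock, 1.13, 1.13 and 1.29 in siNT and 2.66, 2.31 and 2.19 CPM in siELMO1 at 0 h. At 24 h it was at 1.75, 1.75 and 2.19 CPM in Mock, 1.01, 0.821 and 0.909 in siNT and 2.64, 2.48 and 3.67 CPM in siELMO1. The siELMO1 libraries stood above all siNT libraries at both times, and the siNT libraries stood below Mock at 24 h. Against siNT the log2 fold change was 1.01 ± 0.26 at 0 h and 1.68 ± 0.26 at 24 h (SE; edgeR adjusted p = 0.0023 and 4.1e-05), and siNT was lower than Mock at 24 h by a log2 value of 1.05 (adjusted p = 0.0029). Without the siELMO1 library that stood apart the value at 0 h was 0.92. The difference from Mock was less firm: 0.76 at 0 h (adjusted p = 0.019) became 0.60, 0.52 and 0.67 and was no longer called without Mock replicate 1, Mock replicate 2 or siELMO1 replicate 1, and at 24 h it was 0.62 ± 0.25 (adjusted p = 0.054).

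JAG2 (chr14:105140982-105168824, minus strand), the second Jagged ligand, fell with poly(I:C) in Mock from 3.25, 1.92 and 2.78 CPM to 1.16, 1.09 and 1.04 CPM. In siNT it went from 2.64, 2.17 and 1.76 CPM to 1.13, 1.73 and 1.22 CPM, and in siELMO1 from 2.68, 1.33 and 2.09 CPM to 1.73, 1.91 and 1.98 CPM. The groups did not overlap in Mock and siNT and overlapped in siELMO1. The log2 fold changes were -1.27 ± 0.26, -0.69 ± 0.26 and -0.13 ± 0.26 (SE; edgeR adjusted p = 0.00045, 0.034 and 0.69), and the last was 0.12 without the siELMO1 library that stood apart. The call in siNT was lost without siNT replicate 1 or 2 at 0 h or siNT replicate 1 or 3 at 24 h (-0.53 to -0.69). At 24 h siELMO1 exceeded Mock by 0.77 (adjusted p = 0.026), a call lost without Mock replicates 2 or 3 or siELMO1 replicates 2 or 3 at 24 h (0.73 to 0.76). A noncoding RNA overlaps JAG2 on the same strand.

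LFNG, which adds N-acetylglucosamine to O-fucose on Notch receptors, had the largest difference between the controls at 0 h among the genes called. It lies at chr7:2512529-2529177 on the plus strand. At 0 h it was at 6.43, 5.44 and 6.50 CPM in Mock, 20.9, 19.8 and 19.5 in siNT, and 11.4, 7.30 and 6.66 CPM in siELMO1. At 24 h it was at 5.84, 3.71 and 5.10 CPM in Mock, 7.41, 7.58 and 8.55 in siNT, and 8.54, 7.81 and 6.79 CPM in siELMO1. At 0 h siNT stood far above both others, and at 24 h siNT and siELMO1 overlapped above Mock. The siNT level was 3.28-fold that of Mock at 0 h (log2 1.71 ± 0.18, SE; edgeR adjusted p = 3.2e-07) and exceeded it by 0.69 at 24 h (adjusted p = 0.0041). With poly(I:C) LFNG fell in siNT by a log2 value of 1.36 ± 0.17 (adjusted p = 4.1e-06), and gave -0.33 ± 0.18 in Mock and -0.14 ± 0.18 in siELMO1.

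Against siNT, LFNG in siELMO1 gave a log2 value of -1.24 ± 0.17 at 0 h, or -1.52 without the library that stood apart (edgeR adjusted p = 7.3e-06 and 2.0e-07), and gave -0.02 ± 0.18 at 24 h. Its excess over Mock at 0 h, 0.48 ± 0.18 (adjusted p = 0.032), came down to 0.19 (adjusted p = 0.32) without that library. It was also no longer called without any 1 of the 3 Mock libraries (0.37 to 0.49). At 24 h the excess over Mock was 0.66 ± 0.18 (adjusted p = 0.0059).

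The target genes HES1 and HEY1, basic helix-loop-helix repressors, fell with poly(I:C) in each treatment. HES1 (chr3:194136148-194138732, plus strand) went from 14.5, 13.1 and 15.1 CPM to 4.79, 4.57 and 6.17 CPM in Mock. In siNT it went from 14.6, 15.6 and 15.1 CPM to 5.69, 6.96 and 8.01 CPM, and in siELMO1 from 17.1, 18.1 and 18.9 CPM to 4.56, 5.22 and 9.74 CPM. No library of 24 h reached any library of 0 h, and the third siELMO1 library at 24 h was the highest of its time. The fall was 2.75-fold in Mock, 2.19-fold in siNT and 2.79-fold in siELMO1 (log2 -1.46 ± 0.20, -1.13 ± 0.20 and -1.48 ± 0.20, SE; edgeR adjusted p = 7.3e-06, 0.00012 and 7.0e-06). Without the siELMO1 library of 0 h that stood apart the last value was -1.52.

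Between treatments HES1 gave no call at either time, although at 0 h all siELMO1 libraries were above all Mock and siNT libraries. The log2 fold change there was 0.25 ± 0.20 against siNT and 0.34 ± 0.19 against Mock (SE; edgeR adjusted p = 0.27 and 0.16), with 95% intervals of -0.17 to 0.68 and -0.08 to 0.76. When the fit held only the 2 conditions, both were called (adjusted p = 0.016 and 0.018). At 24 h siNT exceeded Mock by 0.41 ± 0.21 (SE; edgeR adjusted p = 0.11, 95% interval -0.04 to 0.86). The 95% intervals given for HES1 use the SE and the residual degrees of freedom, and run somewhat wider than the edgeR test implies. No shared culture or batch is documented for same-numbered libraries of siNT and Mock at 24 h. Their residuals correlated at 0.215, 0.278 and 0.326, which by itself does not show that the numbers pair the libraries. With the replicate number as a block the value was 0.41 with an adjusted p of 0.047. Without the third siELMO1 library at 24 h, HES1 was lower in siELMO1 than in siNT with a log2 value of -0.495 (adjusted p = 0.008), against -0.09 with it. The response to poly(I:C) then differed between siELMO1 and siNT by -0.75 (adjusted p = 0.0047), against -0.35 with it (adjusted p = 0.37). The share of HES1 counts on its main coding transcript was lower at 24 h: it went from 98.6% ± 0.6 (SD, n = 3) to 85.6% ± 3.7 in Mock, from 97.0% ± 0.25 to 90.8% ± 5.5 in siNT and from 98.6% ± 0.75 to 94.98% ± 0.87 in siELMO1. No test was run on these shares.

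HEY1, on the minus strand of chromosome 8, went from 6.05, 6.09 and 5.57 CPM to 2.55, 2.66 and 2.51 CPM in Mock. In siNT it went from 5.06, 4.19 and 3.74 CPM to 1.85, 2.59 and 2.01 CPM, and in siELMO1 from 5.67, 3.86 and 4.85 CPM to 1.83, 2.17 and 1.60 CPM. The times stood apart in each treatment. The log2 fold changes were -1.20 ± 0.17, -1.01 ± 0.17 and -1.36 ± 0.17 (SE; edgeR adjusted p = 9.8e-06, 8.9e-05 and 3.4e-06), the last being -1.22 without the siELMO1 library that stood apart. In siNT at 0 h HEY1 was below Mock (-0.45, adjusted p = 0.033) and at 24 h it was below Mock in siELMO1 (-0.46, adjusted p = 0.041). The first call was lost without Mock replicates 1 or 2 or siNT replicates 2 or 3 at 0 h (-0.35 to -0.47). The second was lost without any 1 of the 3 Mock libraries or siELMO1 replicates 1 or 3 at 24 h (-0.36 to -0.48). The summed epithelial markers, almost wholly keratins, were also lower at 24 h in all 3 treatments, and their part in the fall of HES1 and HEY1 was not tested.

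**Figure D3:**
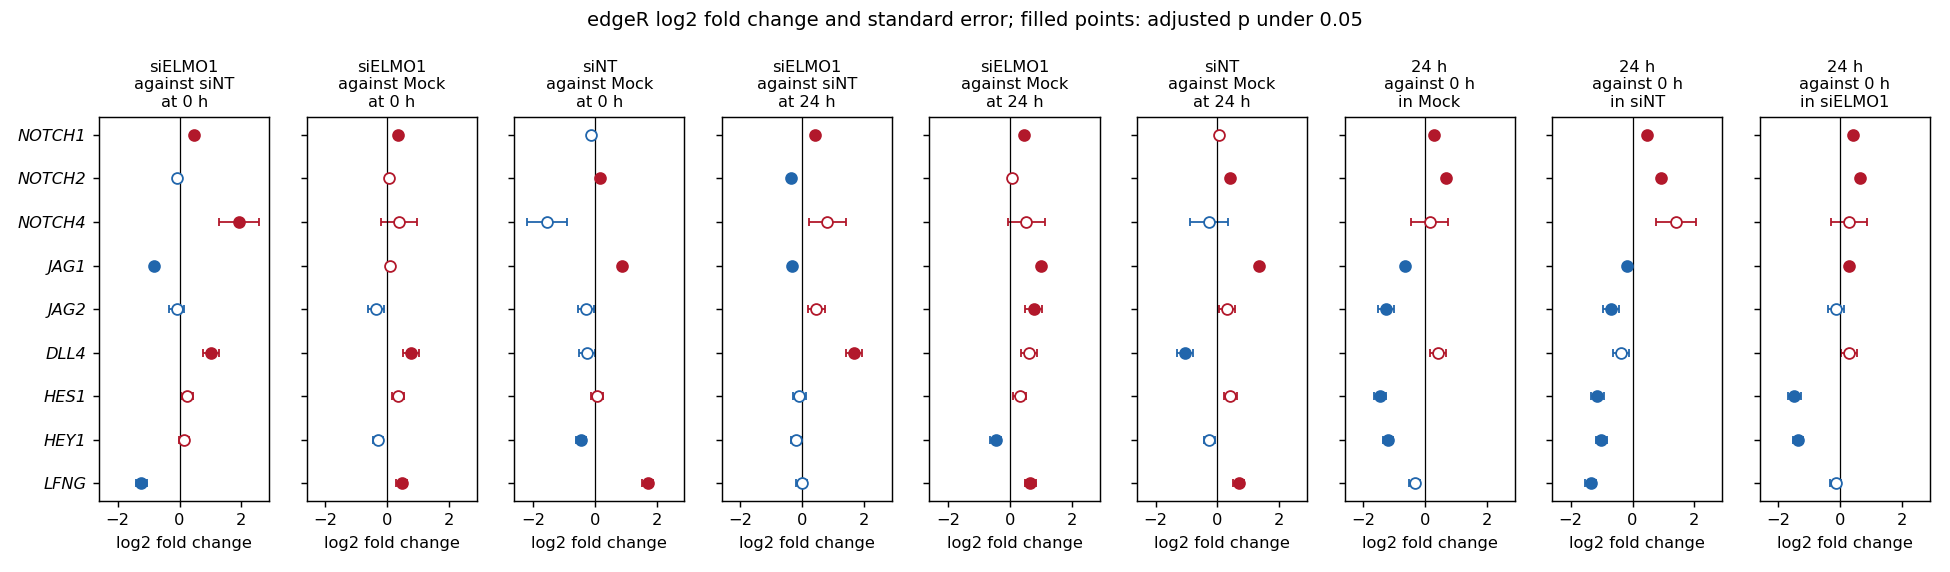
The log2 fold change of the 9 genes tested (point) with its standard error (line) in 9 comparisons from 1 edgeR fit; filled points have an adjusted p under 0.05, red is higher and blue lower in the condition named first. HES1 and HEY1 are filled on the lower side in the 3 comparisons of 24 h against 0 h, and NOTCH1 is filled on the higher side in all 4 comparisons of siELMO1 with a control.

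Of 52 other pathway genes listed, 44 were tested. Against siNT at 0 h, siELMO1 had 21 of them higher and 14 lower (31.3% and 31.3% of all genes), and at 24 h 19 higher and 12 lower (26% and 26.5%). Against Mock these were 20 and 9 at 0 h (27.9% and 22.4%), and 20 and 6 at 24 h (21.6% and 22%). For siNT against Mock 14 were higher and 7 lower at 0 h (27.6% and 24%), and 15 and 10 at 24 h (25.2% and 24.9%). With poly(I:C) 18 rose and 15 fell in Mock (30.7% and 29.6%), 17 and 9 in siNT (28.6% and 25.2%), and 14 and 9 in siELMO1 (28% and 26.9%). Without the siELMO1 library that stood apart its counts at 0 h were 23 and 14 against siNT and 21 and 9 against Mock, and 18 rose and 8 fell with poly(I:C). The median log2 fold change of the 44 genes ran from 0.05 to 0.22 over these comparisons. Of the other ligands DLL1 was the one named by its size of change: it went from 1.36, 1.82 and 1.69 CPM to 14.1, 11.3 and 13.9 CPM in Mock. Its libraries stood apart by time in each treatment, with log2 rises of 3.01 ± 0.19 in Mock, 2.02 ± 0.18 in siNT and 2.35 ± 0.18 in siELMO1 (SE; edgeR adjusted p = 3.1e-10, 6.1e-08 and 6.5e-09), the last being 2.605 without the siELMO1 library that stood apart. DLL1 is a Delta-like ligand, and DLL3 and DLK1 were at or near 0.

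Of the genes of receptor cleavage, 9 of 9 tested, 7 were higher and 2 lower in siELMO1 than in siNT at 0 h (31.3% and 31.3% of all genes), and 7 higher and 1 lower at 24 h (26% and 26.5%). Against Mock 6 were higher and 1 lower at 0 h (27.9% and 22.4%), and 4 and 0 at 24 h (21.6% and 22%). The counts at 0 h were the same without the siELMO1 library that stood apart. The endothelial markers were likewise higher, 7 of 9 against siNT at both times, and their part was not tested. NCSTN, which encodes the γ-secretase subunit nicastrin, was at 71.1, 69.5 and 72.1 CPM in Mock, 47.96, 47.5 and 50.3 in siNT and 125, 143 and 144 CPM in siELMO1 at 0 h. At 24 h it was at 103, 96.6 and 105 CPM in Mock, 61.8, 64.2 and 74.9 in siNT and 172, 181 and 178 CPM in siELMO1. The 3 conditions did not overlap at either time, with siELMO1 highest and siNT lowest. The log2 fold change of siELMO1 was 1.49 ± 0.07 against siNT and 0.95 ± 0.07 against Mock at 0 h, and 1.40 and 0.81 at 24 h (SE; edgeR adjusted p = 2.4e-12, 1.5e-09, 4.1e-11 and 2.8e-08). Without the library that stood apart the values at 0 h were 1.56 and 1.01. APH1B, another γ-secretase subunit, was higher than in siNT by 1.15 at 0 h (1.04 without that library) and 0.71 at 24 h. ADAM17, a sheddase, rose with poly(I:C) by a log2 value of 1.29 in Mock, 0.46 in siNT and 0.72 in siELMO1 (0.70 without that library).

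RBPJ, the DNA-binding partner of the cleaved receptor, was the core nuclear gene and is named here after its values were seen. It was at 75.6, 71.2 and 73.98 CPM in Mock, 67.1, 67.4 and 69.6 in siNT and 36.9, 36.5 and 40.1 CPM in siELMO1 at 0 h. At 24 h it was at 54.0, 49.9 and 53.8 CPM in Mock, 52.7, 60.03 and 55.7 in siNT and 38.7, 35.1 and 36.3 CPM in siELMO1. All siELMO1 libraries were below all controls of their time, with log2 fold changes of -0.85 ± 0.06 against siNT and -0.96 ± 0.06 against Mock at 0 h, and -0.61 and -0.52 at 24 h (SE; edgeR adjusted p = 6.5e-10, 2.2e-10, 1.2e-07 and 1.2e-06). Without the library that stood apart the values at 0 h were -0.83 and -0.94. HES1 gave no call in those comparisons. The 13 genes of the nuclear complex and corepressors had 4 higher and 5 lower against siNT at 0 h, close to the 31.3% and 31.3% of all genes, and 7 higher and 5 lower without that library (31.6% and 31.6%). The lower ones included the corepressors CTBP2 at -0.90 and CTBP1 at -0.50 (-0.86 and -0.62 without that library), likewise named after their values were seen. The coactivator MAML2 was higher than in siNT by 1.201 ± 0.11 (1.33 without the library), and MAML3 higher than in Mock by 1.13 ± 0.09 (1.22 without it). MFNG, a relative of LFNG in the list of 4 receptor glycosylation genes and likewise named after its values were seen, was also highest in siNT at 0 h, with 46.3, 43.4 and 47.0 CPM beside 32.3, 28.4 and 34.0 CPM in Mock. In siELMO1 it gave -0.89 against siNT and -0.36 against Mock (-0.99 and -0.46 without the library). The 4 genes had no common direction: in siNT against Mock at 0 h 1 was higher and 1 lower (27.6% and 24% of all genes). POFUT1 of the same list, also named after its values were seen, was higher in siELMO1 than in siNT by 0.83 (0.79 without the library).

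The other HES, HEY and feedback genes moved in both directions. Of 8 such genes 5 were tested, and HES5 and HEYL had no count. After poly(I:C) 2 rose and 2 fell in Mock (30.7% and 29.6% of all genes), 2 rose and 1 fell in siNT (28.6% and 25.2%), and 2 rose and 2 fell in siELMO1 (28% and 26.9%), or 3 and 2 without the siELMO1 library that stood apart. HES4, whose promoter holds the same RBPJ core as HES1, rose in Mock from 2.69, 3.17 and 2.62 CPM to 10.6, 11.5 and 11.2 CPM, in siNT from 2.25, 1.86 and 2.53 CPM to 5.21, 5.18 and 7.11 CPM, and in siELMO1 from 1.70, 0.727 and 1.24 CPM to 7.85, 8.27 and 9.48 CPM. Its times stood apart in each treatment, opposite in direction to HES1, with log2 fold changes of 1.97 ± 0.20, 1.40 ± 0.21 and 2.77 ± 0.22 (SE; edgeR adjusted p = 1.8e-07, 1.7e-05 and 7.1e-09), the last being 3.10 without the library that stood apart. HES7 rose by 1.83, 1.10 and 1.46 (1.53 without it). NRARP, a feedback inhibitor of Notch, fell with HES1 and HEY1, by log2 values of 1.24, 0.78 and 0.74 (adjusted p = 3.3e-05, 0.0027 and 0.0034), the last value being -0.78 without that library. HES2 fell with poly(I:C) in Mock by a log2 value of 1.45 (adjusted p = 0.00047) and in siELMO1 by 0.715 (adjusted p = 0.047, and -0.85 without that library), and gave 0.25 in siNT (adjusted p = 0.54). It was below its Mock level in siNT at 0 h, with a log2 value of -2.02, and HES6 was lower in siELMO1 than in siNT at 0 h with -2.33 (-2.85 without that library). The RBPJ core was not found in the windows of HES2, HES6, HES7 or NRARP.

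**Figure D4:**
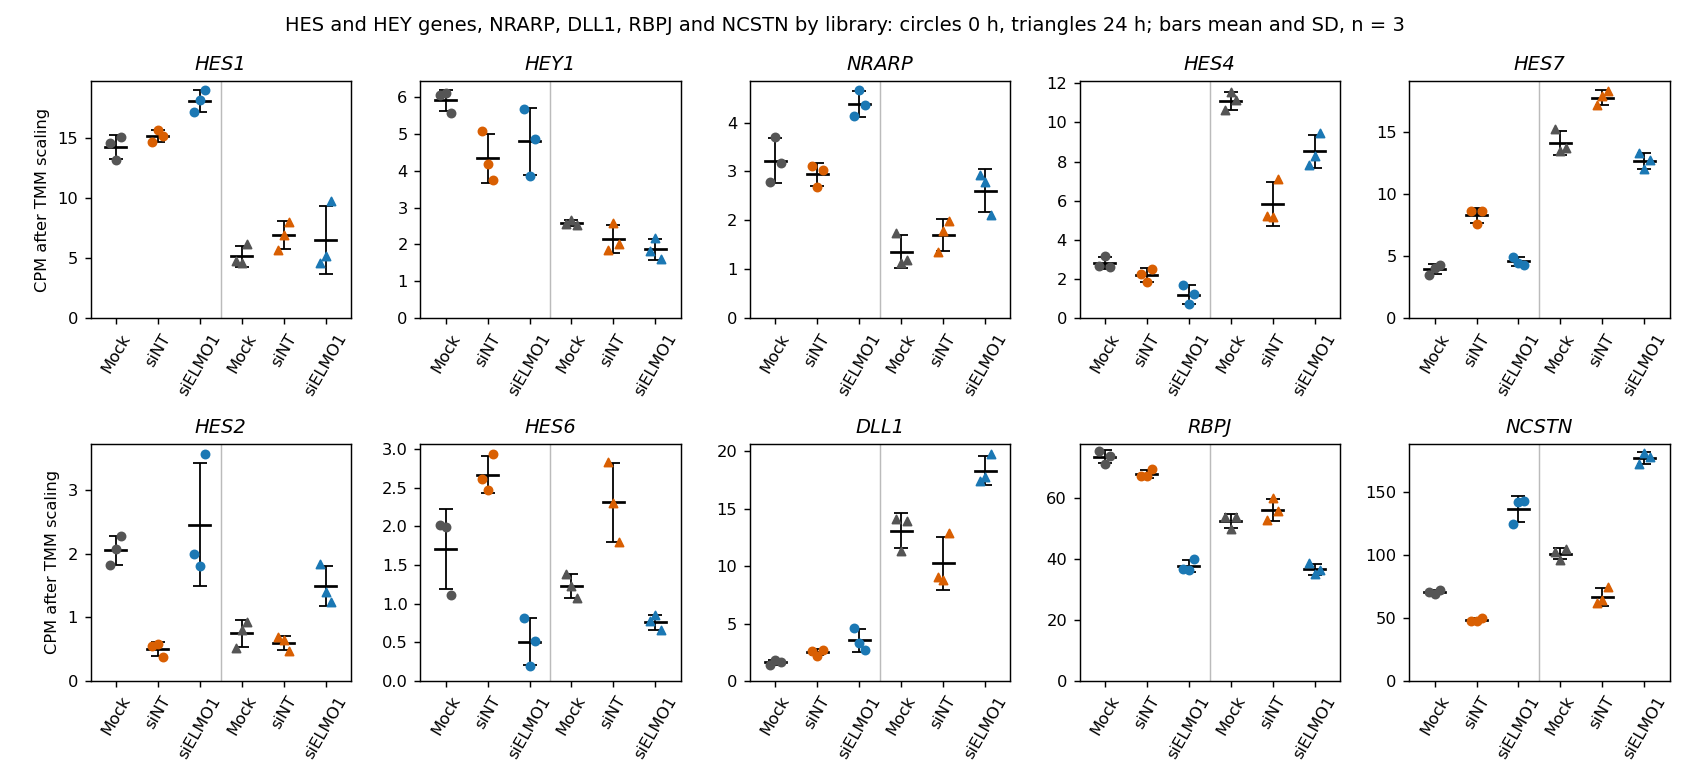
CPM after TMM scaling of HES and HEY genes, NRARP, DLL1, RBPJ and NCSTN in each library, with the mean and SD of 3 libraries as bars; circles are 0 h, triangles 24 h after poly(I:C), grey is Mock, orange siNT and blue siELMO1. HES1, HEY1 and NRARP are lower and HES4, HES7 and DLL1 higher at 24 h, and RBPJ is lowest and NCSTN highest in siELMO1.

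Genes of receptor turnover and endocytosis, 11 of 14 tested, had 4 higher and 3 lower with poly(I:C) in Mock, near the 30.7% and 29.6% of all genes. DTX3L, a ubiquitin ligase of the Deltex family, rose in Mock from 79.3, 81.8 and 85.6 CPM to 935, 945 and 975.1 CPM, a log2 fold change of 3.53 ± 0.08 (SE; edgeR adjusted p = 2.1e-16), and by 2.74 in siNT and 3.48 in siELMO1 (3.43 without the library that stood apart). DTX4, a further member of that family, was higher in siELMO1 than in Mock at 24 h by 1.71 ± 0.15. Of 7 arterial endothelial genes 3 were tested, since EFNB2, GJA4, GJA5 and BMX were at or near 0, and of 4 venous genes 3 were tested. Against siNT at 0 h 2 arterial genes were higher and 1 lower in siELMO1, and 3 of 3 venous genes were higher (31.3% and 31.3% of all genes), with the same counts without the library that stood apart. CXCR4 was higher by 1.59 (1.501 without that library), SOX17 by 0.49 (0.46), and the venous genes NRP2 by 1.32 (1.39) and EPHB4 by 0.86 (0.77). UNC5B, an arterial guidance receptor, was lower by a log2 value of 2.05 (-2.46 without that library), at 1.84 to 2.69 CPM in siNT and 0.379 to 0.815 CPM in siELMO1. General endothelial markers were higher in the same comparison, with a median log2 value of 0.825 (0.84 without that library), and their part was not tested.

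For each member whose condition means spanned over 1 on the log2 scale, the genes with the most similar level over the 18 libraries were found among 12872 genes (12873 for NOTCH4), after centring each gene on its own mean. NOTCH2 was closest to NABP1, with a root mean square difference of 0.10 in log2 CPM, then SLC41A1 and RGL1 at 0.15 each. JAG1 was closest to DUSP5-DT at 0.19, NOTCH4 to SLC35A2 at 0.235, DLL4 to RHOB at 0.21, HES1 to EIF4BP3 at 0.23, HEY1 to PCBP4 at 0.20 and LFNG to TMEM64 at 0.22. NOTCH1 and JAG2 spanned 0.88 and 0.96, below that limit. These values describe likeness over libraries that share conditions and carry no test.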

How the data were processed

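RNA of 18 libraries (6 conditions, 3 libraries each) was sequenced from a stranded mRNA kit, and whether counting used the strand is not given in the sources used here. The authors aligned reads to GRCh38 with STAR and quantified them with StringTie and GENCODE v44. The deposited gene and transcript matrices hold estimated counts (expected counts, whole numbers), not normalized. The script that made them derives counts from coverage and a read length set when it is run, and the value used is not given in the sources used here, so a count is not 1 read pair, and limits such as the 3 counts allowed by a 0 cover counting error only.

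The test covered the 15167 genes whose counts summed to 100 or more and whose highest library reached 1 CPM. One edgeR model (version 4.0.16, R 4.3.3) with TMM factors and 1 coefficient per condition was fitted to all libraries, with the quasi-likelihood test in 12 contrasts and Benjamini-Hochberg adjustment over all genes tested. On simulated counts for those 15167 genes, made for siELMO1 against siNT at 0 h, 81% of changes of 1 on the log2 scale were recovered. Far fewer genes were changed in that simulation than the 62.6% called in the data, so this share need not hold for the data. DESeq2 (1.42.0), limma-voom (limma 3.58.1), other scalings and filters, subsets and each left-out library were alternatives. Listed genes were also fitted without siELMO1 0 h replicate 1, an alternative chosen after seeing the data. TPM came from the transcript matrix and GENCODE v44 lengths. Replicate numbers are in the labels. Residuals of same-numbered libraries correlated at 0.215, 0.278 and 0.326 for siNT and Mock at 24 h, above the limit of 0.1, and in no other comparison were all 3 above it. No column of per-sample values was left out.

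The members and lists were chosen with earlier results of these data known, and no threshold on a value selected a member. Besides members, listed genes could be named where their mean reached 1 CPM and any of 9 comparisons was called with over 2-fold change, plus ELMO1, marker genes and genes of like level. Where no separate cultures are documented beyond the word replicate, p-values measure the spread between these libraries. A listed gene that met this rule is not reported here.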

Additional observations from a re-analysis of the deposited data

Results flagged for a closer look

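In 8 cases the response to poly(I:C) of a gene differed between treatments by the interaction contrast of the edgeR fit. JAG1 accounted for 3 of them: its log2 response was higher in siELMO1 than in siNT by 0.47 (adjusted p = 5.6e-05), higher in siELMO1 than in Mock by 0.93 (adjusted p = 4.2e-08), and higher in siNT than in Mock by 0.46 (adjusted p = 8.3e-05). LFNG, which fell in siNT, gave 1.21 for siELMO1 against siNT (adjusted p = 0.00096) and -1.03 for siNT against Mock (adjusted p = 0.0044). Without the siELMO1 library of 0 h that stood apart the first of these was 1.502.

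NOTCH2 gave -0.27 for siELMO1 against siNT (adjusted p = 0.028, and -0.296 without that library) and 0.25 for siNT against Mock (adjusted p = 0.04). The NOTCH2 values are close to the threshold: each was lost on leaving out any 1 of 6 libraries. For siELMO1 against siNT these were siNT replicates 2 and 3 and siELMO1 replicate 2 at 0 h, and siNT replicates 1 and 2 and siELMO1 replicate 3 at 24 h (-0.25 to -0.23). For siNT against Mock they were Mock replicate 2 and siNT replicates 2 and 3 at 0 h, and Mock replicate 3 and siNT replicates 1 and 2 at 24 h (0.21 to 0.24). JAG2 gave 1.14 for siELMO1 against Mock (adjusted p = 0.028, and 1.391 without that library), lost without Mock replicates 1 or 3 or siELMO1 replicate 2 at 0 h or Mock replicate 3 at 24 h (0.92 to 1.12). Over all genes tested these interactions were called for 34.5% (siELMO1 against siNT), 28.3% (siELMO1 against Mock) and 31% (siNT against Mock). The part of cell death in the interactions that involve siNT was not tested.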

How the results depend on the processing

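Of 51 calls among the 9 genes tested, 40 held in all 8 other settings and with each of the 18 libraries left out, 11 were lost at least once, and 0 turned in direction. With no filter on low counts more genes entered the adjustment, and the number of genes called was 1 for siELMO1 against Mock at 0 h, 2 for siNT against Mock at 0 h, 3 for siELMO1 against Mock at 24 h and 1 for the poly(I:C) response of siELMO1 against Mock. With 1 library left out these counts ran from 1 to 4, 2 to 5, 3 to 6 and 1 to 2, and for the response of siNT against Mock from 2 to 5 and of siELMO1 against siNT from 2 to 3. With the replicate number as a block the counts ranged from 2 to 7, as in the fit without it, none moved by over 1.5 times, and for siNT against Mock at 24 h the count was 5 against 4.

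Only values that were not called turned in sign. NOTCH2 for siELMO1 against Mock at 0 h was -0.012 with library totals. Its response for siELMO1 against Mock was 0.006 with DESeq2 and with DESeq2 size factors, 0.047 with library totals and 0.032 with no filter, and that of HES1 was 0.003 with DESeq2, 0.04 with library totals and 0.022 with no filter; the cause was not tested. With 1 library left out, the siELMO1 against Mock response ran from -0.056 to 0.057 for NOTCH2, -0.10 to 0.65 for NOTCH4, -0.54 to 0.10 for DLL4 and -0.42 to 0.18 for HES1. For siELMO1 against siNT, JAG2 at 0 h ran from -0.35 to 0.13, HES1 at 24 h from -0.495 to 0.11 and LFNG at 24 h from -0.10 to 0.059. For siELMO1 against Mock, NOTCH2 at 0 h ran from -0.008 to 0.10 and HES1 at 24 h from -0.084 to 0.52. For siNT against Mock, DLL4 at 0 h ran from -0.50 to 0.14, HES1 at 0 h from -0.007 to 0.11 and NOTCH4 at 24 h from -0.56 to 0.19. With poly(I:C), NOTCH4 in Mock ran from -0.36 to 0.40, and in siELMO1 JAG2 from -0.35 to 0.12 and LFNG from -0.29 to 0.15. DLL4 in Mock gave 0.82 (adjusted p = 0.0065) without Mock replicate 3 at 0 h, and its response for siNT against Mock -1.20 (adjusted p = 0.0085).

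Taking the length of the transcript with the most counts moved 8 of 60 levels per length by over 1 SD, among them NOTCH4 in siELMO1 at 24 h, from 1.12 to 1.42 TPM. Depth limits NOTCH3 and NOTCH4, where 3 counts stand for 0.0406 to 0.0743 CPM. Without siELMO1 0 h replicate 1, UNC5B against Mock at 0 h went from 0.18 to -0.23 and EPHB4 with poly(I:C) in siELMO1 from -0.004 to 0.082, neither of them called.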
